A study of Mus musculus with 12 samples.

Results

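The genes described here are 10 tubulin, stathmin and microtubule-associated genes of sensory neurons, Tuba1a, Tuba4a, Tubb3, Tubb2a, Tubb2b, Tubb5, Stmn2, Stmn3, Stmn4 and Map1b. They were chosen by symbol, and all 10 were found among the 44345 gene names of the count tables and passed the filter on low counts in each preparation. The study sequenced RNA of dorsal root ganglia (DRG, the clusters of sensory neuron cell bodies beside the spinal cord) at the levels that feed the sciatic nerve. The mice were C57BL/6 animals of 5 to 8 weeks that had spent 10 days in environmental enrichment (EE, a cage with more stimuli) or in standard housing (SH), and no label names a genetic change or a lesion in any group. The count columns of whole ganglia, unlike those of captured neurons, carry the word Sham, which no label explains. Whether it marks a handling that differed between the preparations is not stated. Neurons at least 30 µm wide were captured from dye-stained cryosections with a laser, in 3 EE and 3 SH libraries (RiboZero ScriptSeq) that each pooled 3 mice. Whole ganglia gave 3 EE and 3 SH libraries (TruSeq mRNA), each pooling 2 mice. Whether pools of 1 group were drawn from different animals is not stated, and the p-values given here therefore reflect variation among libraries that may be technical.

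Microtubules are hollow polymers of paired alpha and beta tubulin that carry transport along the axon and give it its shape. Each subunit comes in isotypes from separate genes, which differ most in the acidic tail at the C-terminus, where enzymes add or remove glutamate and tyrosine. Stathmins bind free tubulin and favour disassembly, while MAP1B binds the polymer and stabilises it. Tubb3 is the beta isotype that neurons use as an identity marker, and Stmn2 is known for its role in axon growth.

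The tails show how far the isotypes can be told apart as transcripts. The last 60 coding bases of 5 tubulins, stop codon included, are given 5′ to 3′ on the coding strand from GENCODE vM21 transcripts (GRCm38, the assembly of mm10), each lying in exon 4 of 4. For the alpha tubulin Tuba4a the capitals mark the last codon before the stop, a glutamate codon.
Tuba4a: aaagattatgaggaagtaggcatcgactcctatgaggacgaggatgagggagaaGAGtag
This stretch lies on the minus strand at chr1:75215622-75215681. For the beta tubulins the capitals mark bases not matched in a partner gene when whole coding sequences were aligned, Tubb2b for Tubb2a, and Tubb2a for Tubb2b, Tubb3 and Tubb5.
Tubb2a: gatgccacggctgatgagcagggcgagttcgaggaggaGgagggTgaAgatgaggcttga
Tubb2b: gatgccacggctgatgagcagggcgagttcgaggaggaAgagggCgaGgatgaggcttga
Tubb3: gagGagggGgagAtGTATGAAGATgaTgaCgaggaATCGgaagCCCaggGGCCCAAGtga
Tubb5: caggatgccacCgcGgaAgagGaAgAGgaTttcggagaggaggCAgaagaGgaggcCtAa
These lie at chr13:34074468-34074527, chr13:34127471-34127530 and chr17:35834982-35835041 on the minus strand for Tubb2a, Tubb2b and Tubb5, and at chr8:123421623-123421682 on the plus strand for Tubb3.

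Some of these genes share long stretches, which limits what a read count can say of each. The coding sequences of Tubb2a and Tubb2b differed at 47 of 1338 aligned bases (96.5% identity), whereas Tubb3 was 84.6% identical to Tubb2a and Tubb5 was 84.8% identical to it. Tuba1a and its neighbour Tuba1b, an alpha tubulin of many tissues, differed at 23 of 1356 bases. Of all stretches of 100 bases in the transcript, the read length of whole DRG, 65.1% in Tuba1a, 36.9% in Tubb2a and 27.8% in Tubb2b also occurred in a transcript of another gene, among them Tuba1b, Tuba1c and predicted genes for the first, and each other and a pseudogene for the second and the third. At 125 bases, the read length of captured neurons, the shares were 61.2%, 31.5% and 23.2%. In Tuba4a, Tubb3, Tubb5, Stmn2, Stmn3, Stmn4 and Map1b no stretch of either length was shared. The count tables set aside reads that aligned to several places, 11.0 to 15.2% in captured neurons and 8.49 to 8.99% in whole DRG, so levels of Tuba1a, Tubb2a and Tubb2b are uncertain in a way that those of the other 7 genes are not.

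The libraries held 19296230 to 29434351 reads in genes for captured neurons and 11343579 to 17036481 for whole DRG. In whole DRG depth went with housing, at 11343579 to 12963937 reads in EE and 13782383 to 17036481 in SH. In captured neurons, the 15 markers of large neurons summed to 11147 to 15135 CPM (a gene's reads relative to library size, scaled by TMM) in EE and 8699 to 10752 CPM in SH, and 14 of 15 averaged higher in EE. The 15 nociceptor markers, genes of small neurons for pain and itch, were not at 0 after capture, summing to 3125 to 3913 CPM in EE and 4012 to 4816 CPM in SH, with 13 of 15 lower in EE. In whole DRG the nociceptor sum was 4041 to 4182 CPM in EE and 3834 to 4326 CPM in SH. The large-neuron sum there was 13790 to 14511 CPM in EE and 14943 to 15904 CPM in SH. Capture and library kit cannot be told apart in these sums, so they do not show an enrichment of large neurons. The 9 satellite glia markers summed to 2804 to 3054 CPM in EE and 2251 to 2488 CPM in SH, and 10 markers of myelinating Schwann cells to 842 to 1048 and 953 to 1171 CPM. SH replicate 2 stood apart with 708 CPM of 8 skeletal muscle markers, against 3.88 to 13.7 CPM in the other 5 captured libraries. No marker found in the tables was at 0 in all libraries of a preparation.

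**Figure D1:**
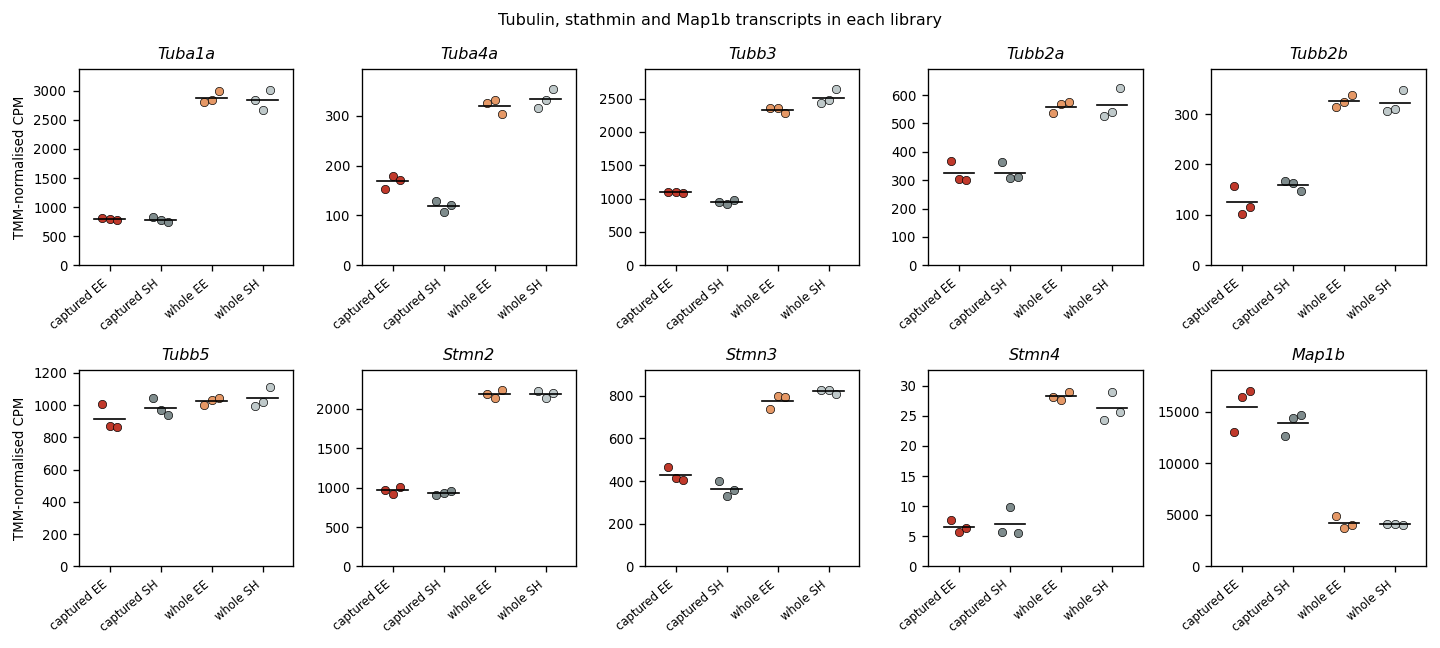
TMM-normalised CPM of each gene in each of the 12 libraries (points, 1 per library) with the group mean (line), by preparation and housing. In captured neurons the 3 EE points of Tuba4a, Tubb3 and Stmn3 lie above the 3 SH points, while in whole DRG the EE points of Tubb3 and Stmn3 lie below the SH points.

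In captured neurons of enriched mice, Tuba4a stood 1.41-fold higher, Tubb3 1.15-fold higher and Stmn3 1.18-fold higher, while Tubb2b stood at 0.784 of its level in standard housing. None of the 10 genes passed the threshold over all genes (edgeR quasi-likelihood test, Benjamini-Hochberg adjusted p under 0.05), which 0.0185% of the 16186 genes tested did. At an unadjusted p under 0.05 there were 4 of 10, 3 higher and 1 lower, where 15.9% of all genes had such a p, 7.3% higher and 8.62% lower. DESeq2 called 2 of the 10 (4.18% of all genes it gave an adjusted p) and limma-voom 0. In edgeR 2 were called with no filter on low counts (2.48% of genes), 2 without EE replicate 1 (3.64%) and 3 among the 2 EE and 2 SH libraries of sequencing lane 3 (4.06%), and limma on the authors' second table with a minimum mean of 1 called 1 (0.594%). In 3 of the 10 every EE library lay above every SH library and in none below, where 21.1% of all genes had groups that did not overlap, 10.2% with EE above and 10.9% with EE below. The members' median log2 fold change was 0.044, beside −0.00059 over all genes tested, with 6 positive and 4 negative. In bulk RNA, more cells of a type and more RNA per cell cannot be told apart.

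Among the alpha tubulins, Tuba4a, whose transcript encodes no final tyrosine, had the smallest p of the 10. It had 153, 180.2 and 172 CPM in captured EE neurons and 130.0, 106 and 121 CPM in captured SH neurons. All 3 EE libraries lay above all 3 SH libraries, the lowest EE library being replicate 1. The log2 fold change was 0.50 (SE 0.090), ranking 36 of 16186 genes by p, with an adjusted p = 0.0898 in edgeR. Tuba4a was past the threshold without EE replicate 1 (log2 fold change 0.56, adjusted p = 0.0102) and within lane 3 (0.49, adjusted p = 0.00114), by the same edgeR test. DESeq2 also called it (0.50, adjusted p = 0.000223). Without any 1 of the other 5 libraries edgeR did not call it, with log2 fold changes of 0.42 to 0.57 and an adjusted p of up to 0.378.

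Tuba1a, the main alpha tubulin of neurons, had 815, 789 and 781 CPM in captured EE neurons and 823, 773 and 746 CPM in captured SH neurons. These groups overlapped, and the log2 fold change was 0.026 (SE 0.061, adjusted p = 0.871 by edgeR). Its sign was turned by the correction for length and GC content (−0.044) and by leaving out SH replicate 3 (−0.0049).

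Of the beta tubulins, Tubb3 had 1102, 1101 and 1082 CPM in captured EE neurons and 949, 922 and 981 CPM in captured SH neurons. The groups were apart and each was tight, with means of 1095 ± 11.2 CPM in EE and 950.4 ± 29.5 CPM in SH (SD, n = 3 each). The log2 fold change was 0.20 (SE 0.057), with adjusted p = 0.153 in edgeR and adjusted p = 0.0464 in DESeq2. It lay between 0.18 and 0.23 with any 1 library left out, and was 0.15 with length and GC corrected (adjusted p = 0.228 in edgeR).

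Tubb2b, an isotype of developing neurons, went the other way, unevenly. It had 157, 101 and 116 CPM in captured EE neurons and 168, 163 and 147 CPM in captured SH neurons. EE replicate 1 lay inside the SH range and EE replicates 2 and 3 below it. The log2 fold change was −0.35 (SE 0.14, adjusted p = 0.247). Without EE replicate 1 it was −0.55 (adjusted p = 0.0112), within lane 3 −0.53 (adjusted p = 0.00288) and without EE replicate 2 −0.21 (adjusted p = 0.546), all by edgeR.

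Tubb2a, its near copy, had 367, 304 and 301 CPM in captured EE neurons and 363, 308 and 310 CPM in captured SH neurons. These overlapped (log2 fold change −0.013, SE 0.094), and leaving out single libraries moved the value between −0.11 and 0.070. Tubb5, a beta tubulin of most cell types, had 1007, 869 and 864 CPM in EE and 1041, 970.4 and 939 CPM in SH. Only EE replicate 1 lay inside the SH range, and the log2 fold change was −0.11 (SE 0.076, adjusted p = 0.532 by edgeR), and −0.19 within lane 3 (adjusted p = 0.0976). It was −0.18 without EE replicate 1, and −0.063, −0.068 and −0.063 without EE replicate 2, EE replicate 3 or SH replicate 1.

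Among the stathmins, Stmn3 had 466, 413 and 404 CPM in captured EE neurons and 399, 329 and 356 CPM in captured SH neurons. The groups were apart by a small margin, and the log2 fold change was 0.24 (SE 0.085, adjusted p = 0.213 by edgeR). With single libraries left out it ran from 0.18 to 0.32, and it was 0.11 (SE 0.063) within lane 3 and 0.14 with length and GC corrected. Stmn2 had 966, 924 and 1014 CPM in EE and 903, 928 and 953 CPM in SH, overlapping, at 0.061 (SE 0.061). Stmn4 was low, with 114 to 227 reads in the EE libraries and 108 to 208 in the SH libraries, at −0.078 (SE 0.23).

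Map1b gave 324108 to 387132 reads in captured EE libraries and 251626 to 305592 in captured SH libraries. It had 13079, 16460 and 16981 CPM in EE and 12684, 14387 and 14723 CPM in SH. EE replicate 1 fell among the SH values and the other two EE libraries lay above them. The log2 fold change was 0.15 (SE 0.098, adjusted p = 0.479). Within lane 3 it was 0.29 (adjusted p = 0.0159), with length and GC corrected 0.28 (adjusted p = 0.164), and without EE replicate 1 0.26 (adjusted p = 0.0545). It was 0.084 without EE replicate 3 (adjusted p = 0.770) and 0.092 without SH replicate 1 (adjusted p = 0.716), all by edgeR.

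**Figure D2:**
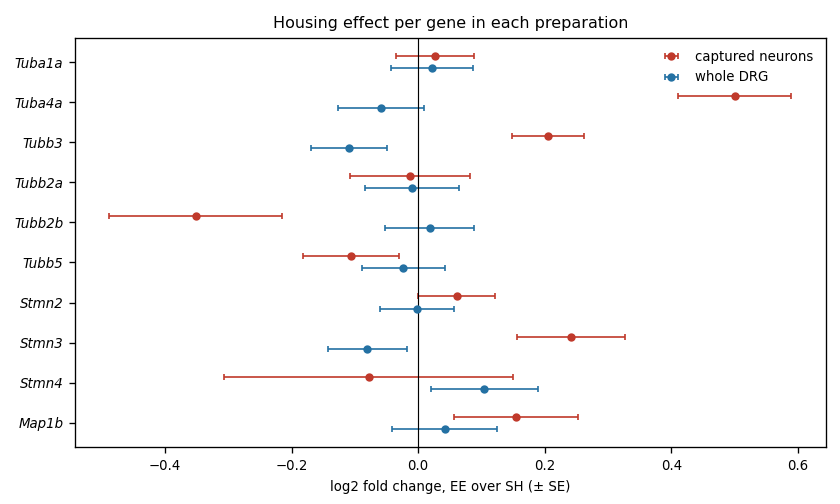
Log2 fold change of EE over SH for each gene in captured neurons (red) and whole DRG (blue), bars showing the SE of the edgeR fit. Tuba4a (0.50), Stmn3 (0.24), Tubb3 (0.20) and Tubb2b (−0.35) lie farthest from 0 in captured neurons, while whole DRG spans −0.11 to 0.10.

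In whole ganglia the same transcripts differed little with housing. None passed over all genes by edgeR, DESeq2 or limma-voom, where 0.00631% of 15845 genes passed in edgeR, and 0 of 10 had an unadjusted p under 0.05, against 2.9% of all genes, 1.34% higher and 1.55% lower. Log2 fold changes ran from −0.11 to 0.10 with a median of −0.0059, beside a median of 0.0028 over all genes tested. EE and SH pools of the same number had been sequenced in 1 lane, and with the number as a block none of the 10 passed either (0.202% of all genes).

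Tubb3 and Stmn3 were the members whose housing groups did not overlap in whole DRG, each lower in EE. Groups did not overlap in 7.48% of all genes, 3.19% with EE above and 4.29% with EE below. Tubb3 had 2361, 2352 and 2286 CPM in whole EE ganglia and 2431, 2475 and 2643 CPM in whole SH ganglia (log2 fold change −0.11, SE 0.061). In the 3 lane pairs it was lower in EE by 0.042, 0.073 and 0.21 on the log2 scale. With groups that do not overlap, every pair had to be lower, so the direction of the pairs adds nothing. Stmn3 had 736, 798 and 791 CPM in EE and 824, 827 and 808 CPM in SH (−0.081, SE 0.062), and its pairs were likewise bound to be lower. The 15 large-neuron markers summed to 13790 to 14511 CPM in EE and 14943 to 15904 CPM in SH, a sum made up mostly by the neurofilament genes Nefm, Nefl and Nefh. Of the 15, 6 averaged higher in EE and 9 lower, with a median log2 fold change of −0.015. Their part in the lower values was not tested.

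The other 8 overlapped between housings in whole DRG. Tuba1a had 2814, 2839 and 3000.2 CPM in EE and 2835, 2672 and 3015 CPM in SH. Tuba4a, the farthest from SH in captured neurons, had 325, 331 and 304 CPM in EE and 316, 331 and 353 CPM in SH (log2 fold change −0.059, SE 0.068). Stmn2 had 2189, 2138 and 2243 CPM in EE and 2227, 2146 and 2207 CPM in SH. Map1b was spread by EE replicate 1, at 4899 CPM against 3774 and 3973 CPM in the other EE ganglia and 4153, 4107 and 4027 CPM in SH ganglia. Tubb2a (−0.010), Tubb2b (0.018), Tubb5 (−0.024) and Stmn4 (0.10) had log2 fold changes with an SE of 0.065 to 0.085.

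Whether the housing difference itself differed between the 2 RNA sources was tested as an interaction over all 12 libraries. No member passed in edgeR, where 0% of the 17412 genes tested were past the threshold, while 4 of 10 had an unadjusted p under 0.05 (11.7% of all genes). DESeq2 called 2 of 10 (1.28% of genes) and limma-voom 0, while edgeR called 1 with no filter on low counts (1.24%) and 2 without captured EE replicate 1 (1.32%). The log2 fold change in captured neurons minus that in whole DRG was 0.55 for Tuba4a (SE 0.12, adjusted p = 0.131), 0.30 for Tubb3 (SE 0.085, adjusted p = 0.226), 0.31 for Stmn3 (SE 0.11, adjusted p = 0.299) and −0.38 for Tubb2b (SE 0.16, adjusted p = 0.384) by edgeR. Without captured EE replicate 1 the difference passed for Tuba4a (0.62, adjusted p = 0.0146) and Tubb2b (−0.58, adjusted p = 0.0214), and DESeq2 called Tuba4a (0.54, adjusted p = 0.00602) and Tubb3 (0.29, adjusted p = 0.0172).

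Neuron markers also differed between the captured housing groups, and their levels are set here beside Tuba4a, Tubb3, Stmn3 and Tubb2b. Relative to the SH mean, Tuba4a stood at 0.36, 0.60 and 0.53 (log2) in EE replicates 1, 2 and 3, and the sum of large-neuron markers at 0.18, 0.60 and 0.62. Tubb2b stood at −0.022, −0.66 and −0.46, and the sum of nociceptor markers at −0.16, −0.48 and −0.41. In both pairs EE replicate 1 was nearest to SH. EE replicate 1 was also the only captured library of lane 1 and had the most reads in genes, 29434351. Cell makeup, lane and library cannot be told apart in this pattern. Tubb3 was even, at 0.21, 0.21 and 0.19, and the sum of 9 pan-neuronal genes was at 0.12, 0.083 and 0.12, although within that list Snap25, a synaptic fusion protein, was at 0.35 (SE 0.087) and Syt1, a calcium sensor of release, at −0.49 (SE 0.15). Stmn3 stood at 0.37, 0.19 and 0.16, with EE replicate 1 farthest from SH. Satellite glia markers were at 0.22, 0.35 and 0.29, with EE replicate 1 nearest to SH and EE replicate 2 farthest, as for Tuba4a. What part these cell types have in the tubulin values was not tested. SH replicate 2, the library with muscle markers, was also the only captured library of lane 2. Without SH replicate 2 the log2 fold change was 0.42 for Tuba4a, 0.18 for Tubb3, 0.18 for Stmn3 and −0.33 for Tubb2b, none past the threshold in edgeR.

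**Figure D3:**
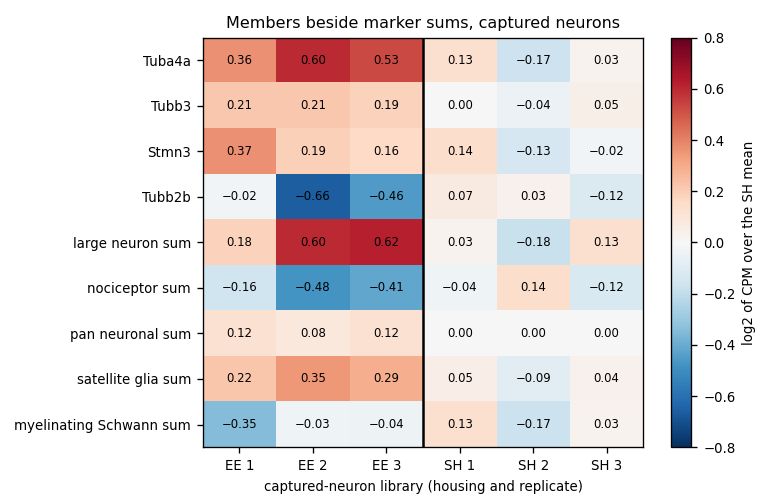
Log2 of the CPM of 4 genes and of 5 marker sums in each captured library, relative to the mean of the 3 SH libraries, red higher and blue lower. Tuba4a (0.36, 0.60, 0.53) is listed with the large-neuron sum (0.18, 0.60, 0.62) and Tubb2b (−0.022, −0.66, −0.46) with the nociceptor sum (−0.16, −0.48, −0.41) for EE replicates 1, 2 and 3.

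The makeup of each family was then compared per length, as CPM per kilobase of gene length recovered from the authors' FPKM. In captured neurons Tuba1a made up 72.0% ± 1.20 of alpha tubulin transcripts in EE and 75.8% ± 0.24 in SH (SD, n = 3 each), and Tuba4a 12.3% ± 1.04 and 9.29% ± 0.85. For both genes the housing groups were apart. Total alpha tubulin was 658 to 671 CPM per kilobase in EE and 591 to 656 in SH. Among beta tubulins, Tubb3 made up 39.4% ± 1.80 in EE and 35.6% ± 1.54 in SH, Tubb5 18.4% ± 0.66 and 20.7% ± 0.63, and Tubb2b 4.32% ± 0.78 and 5.80% ± 0.37, again with no overlap. The minor Tubb6 was apart as well, at 0.297% ± 0.024 in EE and 0.200% ± 0.051 in SH. In CPM, 21.1% of all genes had groups that did not overlap, and no such rate was computed for shares. A share rises when others fall, so these are not independent of each other or of the fold changes above. The alpha and beta tubulin shares also rest on genes whose reads cannot all be placed, Tuba1a, Tubb2a and Tubb2b among them.

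Among stathmins in captured neurons, Stmn2 held 51.7% ± 2.49 in EE and 53.8% ± 2.97 in SH, and Stmn3 38.2% ± 1.83 and 35.0% ± 2.09, each overlapping. In whole DRG the shares were close, Tubb3 at 46.7% ± 0.87 of beta tubulin in EE and 48.2% ± 0.43 in SH, and Tuba4a at 7.06% ± 0.48 of alpha tubulin in EE and 7.40% ± 0.53 in SH. Tubb3 was apart between housings there too, in the opposite direction, and so was Tubb2b, at 6.32% ± 0.21 in EE and 5.97% ± 0.12 in SH. Tubb4b, at 12.9% ± 0.27 in EE and 12.4% ± 0.071 in SH, and the minor Tuba1c and Tubb1 were apart as well, each higher in EE. In CPM, groups did not overlap in 7.48% of all genes of whole DRG.

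**Figure D4:**
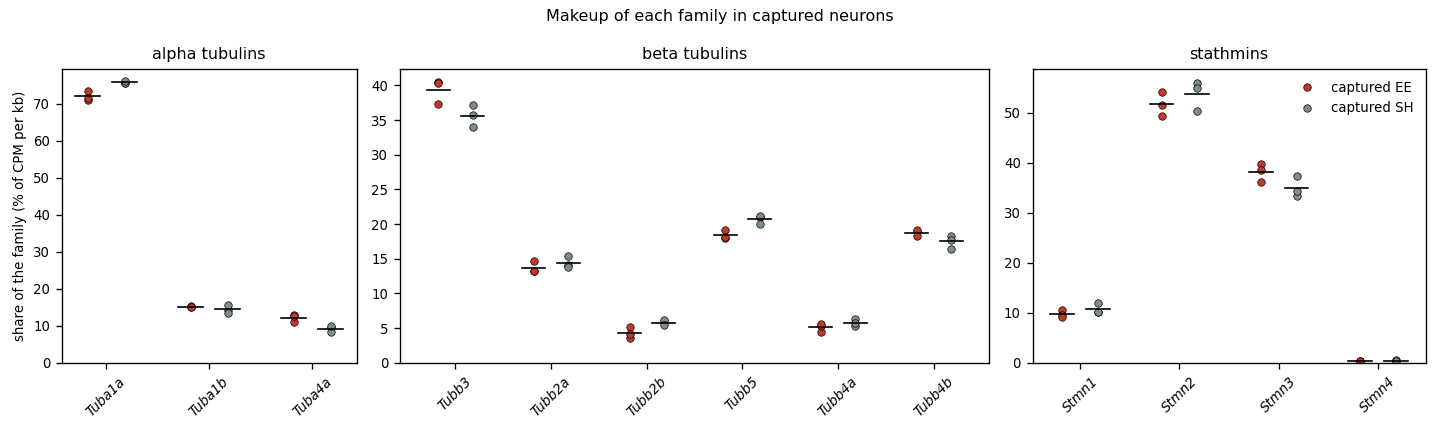
Share of each gene in the length-scaled transcripts of its family in the 3 EE (red) and 3 SH (grey) libraries of captured neurons, lines at the means. Tuba4a (12.3% in EE, 9.29% in SH) and Tubb3 (39.4% in EE, 35.6% in SH) are higher in EE, and Tuba1a, Tubb2b and Tubb5 lower.

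Map1b was the one member higher in captured neurons, at 1169 CPM per kilobase in captured SH neurons and 344 in whole SH ganglia, a ratio of 3.40. The other 9 were lower after capture, at ratios between 0.266 (Stmn4) and 0.944 (Tubb5). Per length, the order in captured SH neurons was Map1b, Tubb3 (506), Stmn2 (485), Tuba1a (471), Stmn3 (317), Tubb5 (294), Tubb2a (205), Tubb2b (82.4), Tuba4a (57.7) and Stmn4 (3.64 CPM per kilobase). The SDs were 15.7 for Tubb3, 13.2 for Stmn2 and 23.6 for Tuba1a, and 30.8 for Stmn3 and 15.6 for Tubb5 (n = 3 each), so these neighbours in the order are not clearly set apart by their spread. The places and ratios of Tuba1a, Tubb2a and Tubb2b are further uncertain, because reads that aligned to several places were set aside. In whole SH ganglia the order was Tuba1a (1715), Tubb3 (1340), Stmn2 (1146), Stmn3 (718), Tubb2a (354), Map1b (344), Tubb5 (312), Tubb2b (166), Tuba4a (162) and Stmn4 (13.7 CPM per kilobase). There Tubb2a (SD 33.8) and Map1b (SD 5.35) overlapped, as did Tubb2b (SD 12.2) and Tuba4a (SD 9.03). Map1b has the longest gene length of the 10 (11.9 kb, against 1.14 to 3.34 kb). Captured RNA had a lower integrity score and went through ribosomal depletion in place of poly(A) selection, so capture, RNA quality and kit cannot be told apart here, and no test was made.

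Of the genes that act on microtubules, 6 lists with 153 genes in the tables, none was past the threshold in either housing comparison (edgeR). In captured neurons DESeq2 called 4 microtubule-associated genes, 2 higher and 2 lower in EE, and 1 gene that modifies tubulin, and edgeR within lane 3 called the same numbers. Over all genes 4.18% were called by DESeq2 and 4.06% within lane 3. In the edgeR fit of all captured libraries, 39 microtubule-associated genes and 25 genes that modify tubulin were tested. The other lists had no call by DESeq2 or within lane 3. Whether the calls in a list exceed the share over all genes was not tested. In captured neurons 145 were tested, 12 at an unadjusted p under 0.05 and higher in EE and 8 lower, against 7.3% and 8.62% of all genes. The other tubulins (11 tested, median log2 fold change 0.16, beside −0.00059 over all genes) included Tubb6, a minor beta tubulin, at 7.75 ± 0.39 CPM in EE and 5.00 ± 1.11 CPM in SH (0.63, SE 0.18), and Tuba1b at 191 ± 4.17 and 169 ± 16.2 CPM (0.17, SE 0.077). The reads of Tuba1b are as hard to place as those of Tuba1a.

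Of the genes that fold tubulin (20 tested, median 0.086), 17 of 20 were positive, where 49.9% of all genes tested were. Genes of a list can vary together over 6 libraries, and no list was tested as a set. The folding genes included Tbca, a cofactor that holds beta tubulin, at 63.9 ± 2.07 CPM in captured EE and 51.8 ± 7.86 CPM in captured SH neurons. Pfdn4, a subunit of the prefoldin chaperone, stood at 30.5 ± 3.86 and 24.5 ± 2.72 CPM. Genes that modify tubulin (25 tested, median −0.032) included Lrrc49, part of the complex that adds glutamate to tails, at 326 ± 44.3 CPM in EE and 240.3 ± 24.0 CPM in SH (0.44, SE 0.11, adjusted p = 0.129 by edgeR). Atat1, the acetyltransferase of alpha tubulin, stood at 4.47 ± 0.54 CPM in EE and 5.80 ± 0.21 CPM in SH.

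Of the microtubule-associated proteins (39 tested, median −0.075), 29 of 39 were negative, where 49.9% of all genes tested were positive. They included Dcx, a protein of young neurons, at 9.85 ± 2.89 CPM in captured EE and 17.4 ± 2.77 CPM in captured SH neurons (−0.81, SE 0.20), and Map7d2, which recruits kinesin, at 906 ± 138 and 634 ± 91.6 CPM (0.51, SE 0.13). Both had an adjusted p = 0.129 in edgeR. Severing and depolymerising enzymes (12 tested, median −0.096) included Spast (74.8 ± 3.26 CPM in EE, 83.0 ± 6.61 in SH) and the depolymerising kinesin Kif2a (169.9 ± 14.6 and 193 ± 26.2 CPM). Transport motors (38 tested, median 0.037) included the dynactin subunit Dctn3 (87.0 ± 1.90 CPM in EE, 72.1 ± 7.90 in SH) and the dynein regulator Ndel1 (171 ± 4.32 and 149 ± 6.98 CPM).

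In whole DRG, 143 genes of these lists were tested, with 2 higher and 2 lower at an unadjusted p under 0.05, against 1.34% and 1.55% of all genes. These counts are near the shares over all genes and give no result about the lists. List medians ran from −0.061 to 0.0094. Those with the smallest p included Tuba1c (20.7 ± 6.70 CPM in EE, 14.9 ± 0.71 in SH), the nucleating gamma tubulin Tubg1 (37.8 ± 4.22 and 42.9 ± 2.28), Tbca (134 ± 5.00 and 124 ± 11.2), Arl2 (47.2 ± 4.23 and 50.6 ± 2.29) and the glutamylases Ttll4 (13.9 ± 1.24 and 11.3 ± 0.97) and Ttll6 (0.760 ± 0.21 and 1.32 ± 0.30). They also included Map1s (24.3 ± 1.63 CPM in EE, 26.6 ± 0.69 in SH), Dpysl4 (10.7 ± 1.22 and 12.1 ± 0.40), Spast (50.4 ± 5.38 and 46.1 ± 2.39), Katnal2 (1.01 ± 0.12 and 1.35 ± 0.17), the kinesin light chain Klc3 (4.53 ± 0.59 and 6.13 ± 1.56) and the dynactin subunit Dctn1 (349 ± 13.4 and 381 ± 28.8).

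Outside these genes, the patterns most like those of 2 members were sought over the 12 libraries, as the root mean square difference of log2 CPM centred on each preparation, among 4883 well expressed genes. For Tubb3 they were Ctps (0.041), Ankrd27 (0.042) and Pak1ip1 (0.042), beside a median of 0.13 and a spread of Tubb3 itself of 0.089. For Stmn2 they were Ndfip2 (0.029), Nmt1 (0.033) and Glyr1 (0.035), beside a spread of Stmn2 of 0.042. These values describe likeness in these libraries only.

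**Figure D5:**
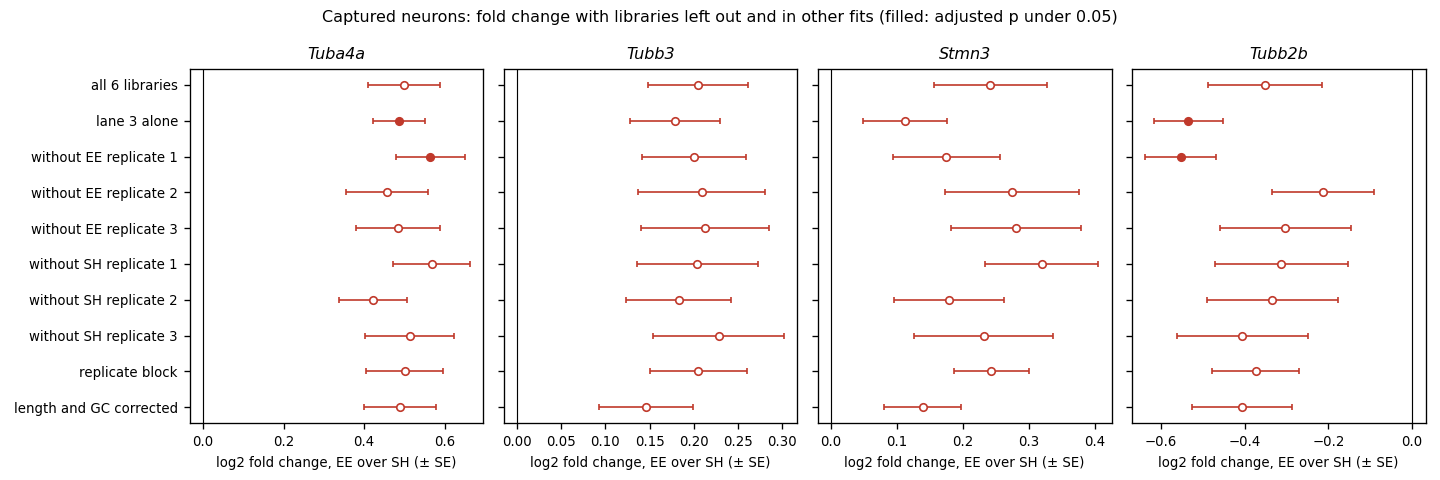
Log2 fold change of EE over SH in captured neurons (± SE) for 4 genes with all 6 libraries, within lane 3, with each library left out, with the replicate number as a block and with length and GC corrected; filled points have an adjusted p under 0.05. Tuba4a stays between 0.42 and 0.57, and Tubb2b is past the threshold within lane 3 (−0.53) and without EE replicate 1 (−0.55).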

How the data were processed

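The authors deposited 1 table of unnormalised read counts for each preparation, covering 44345 gene names. Per the submitters' processing notes, mm10, HTSeq 0.6.0, TopHat2 2.0.12, edgeR 3.8.6, Bowtie2 2.2.3 and SAMtools 0.1.19 were used, in roles that the notes do not give. Their 5 summary rows (42.3 to 49.8% of reads in captured neurons, 56.3 to 56.6% in whole DRG) were left out. Gene lengths were recovered by dividing whole-DRG counts by the FPKM that the authors deposited. The authors' second table of captured neurons is named FPKM but holds a signal equal to counts times 1 constant per library. Columns were matched by housing and number, although whole-DRG columns also carry the word Sham.

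Counts were tested with edgeR 4.0.16 (R 4.3.3), with filterByExpr, TMM, the quasi-likelihood test and Benjamini-Hochberg adjustment over all genes, each preparation on its own and together for the interaction. The method was tested on simulated counts, with planted changes larger than those of the members and no lane effect. That test therefore does not speak to changes of the members' size. Alternatives used DESeq2 1.42.0, limma 3.58.1, other scalings and filters, the authors' second tables on a log2 scale, a replicate block, lane 3 and leaving out each library. Length and GC correction (splines, 4 degrees of freedom, 91.1 and 90.8% of tested genes with a value) was added after seeing the data. Replicate numbers pair whole-DRG libraries because each shared a lane. Deviations from group means correlated at 0.44, 0.29 and 0.0035 within numbers, so the pairing rests on the lanes. Captured libraries share numbers only.

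The named genes were the 10 members, per pathway list and housing comparison the called genes up to 4, or the 2 with the smallest p, and the 3 closest patterns to Tubb3 and Stmn2. Members and lists were chosen with earlier results of these data known. Sequences and positions are from GENCODE vM21.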

Additional observations from a re-analysis of the deposited data

Results flagged for a closer look

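Tubb3 and Stmn3 had housing differences of opposite sign in the 2 RNA sources, every EE library lying above every SH library in captured neurons and below every SH library in whole DRG. Of all genes tested, 10.2% had EE above SH without overlap in captured neurons, and 4.29% had EE below SH in whole DRG. The share of genes with both was not computed. The large-neuron marker sum had both too, although 6 of its 15 genes averaged higher in EE in whole DRG. A link between the sum and these genes was not tested. The housing effect in captured neurons minus that in whole DRG was 0.30 (log2, SE 0.085) for Tubb3 and 0.31 (SE 0.11) for Stmn3. Neither difference passed over all genes in the interaction test of edgeR (adjusted p = 0.226 and adjusted p = 0.299). Groups of 3 libraries are too small for a check of single outlying samples.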

How the results depend on the processing

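In captured neurons 0 of 10 members passed in the edgeR fit, against 2 with DESeq2, 2 with no filter on low counts, 1 with limma on the second table with 1 added and a minimum mean of 1, 3 within lane 3 and 0 to 2 with a library left out (2 without EE replicate 1). For the difference between preparations 0 passed, against 2 with DESeq2, 1 with no filter and 0 to 2 with a library left out (2 without captured EE replicate 1). In whole DRG 0 passed under every alternative. The replicate block changed no call of a member in any comparison (0 passed in each). Of 569 values of single members, 514 kept direction and side of the threshold, 15 gained a call and 40 changed sign. Sign changes outside leave-one-out were Tubb2a in whole DRG at 0.018 with length and GC corrected and 0.020 with the block added, Map1b in whole DRG at −0.00021 with that block and correction, Tuba1a in captured neurons at −0.044 under each of those corrected fits, Stmn4 in captured neurons at 0.12 within lane 3, and, scaled by library size alone, the difference for Tuba1a (0.023) and Tubb2a (0.015). With single libraries left out, whole-DRG values ran from −0.080 to 0.11 for Map1b, −0.020 to 0.014 for Stmn2, −0.020 to 0.067 for Tuba1a, −0.057 to 0.071 for Tubb2a, −0.017 to 0.080 for Tubb2b and −0.056 to 0.028 for Tubb5. Captured values ran from −0.22 to 0.25 for Stmn4, −0.0049 to 0.067 for Tuba1a and −0.11 to 0.070 for Tubb2a, and differences from −0.33 to 0.13 for Stmn4, −0.037 to 0.059 for Tuba1a and −0.11 to 0.065 for Tubb2a. The cause of these changes was not tested. Depth limits Stmn4 most, with 108 to 227 reads per captured library. Pathway lists with no call in edgeR gained at most 5 calls (microtubule-associated genes, no filter on low counts, where 2.48% of all genes were called).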
